A study of Mus musculus with 6 samples.

Results

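The ErbB family comprises 4 receptors (Egfr, Erbb2, Erbb3 and Erbb4) and a set of epidermal growth factor-like ligands, of which Areg, Ereg, Hbegf, Nrg1, Tgfa and Btc are considered here. These 10 genes were chosen by name, and 9 of them, all 4 receptors and 5 of the 6 ligands, had a probe set with a single gene symbol among 19938 measured genes. Areg was not analysed here. Each of the 9 had 1 such probe set. A further probe set annotated to both Erbb2 and Sympk was left out by the same rule.

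ErbB ligands are made as membrane-bound precursors and are released by metalloproteinases of the Adam family. Ligand binding pairs the receptors and starts the Ras-MAPK and PI3K-Akt pathways. Egfr and Erbb4 bind ligands and have active kinase domains, Erbb2 has no known ligand and serves as the preferred partner, and Erbb3 binds neuregulins but has little kinase activity. In the lung these receptors take part in epithelial repair and, with neuregulin, in the maturation of surfactant-producing type II cells.

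Messenger RNA was measured on 6 arrays of type II alveolar epithelial cells, each from a pool of 3 mice aged 8 weeks, isolated with collagenase and differential plating and lysed 2 hours later. The 3 pools labelled knockout carried the transgenes SP-C-rtTA and (tetO)7CMV-Cre with Gpr116flx/flx, an allele of the adhesion receptor Gpr116 that Cre can delete. The 3 control pools carried SP-C-rtTA and (tetO)7CMV-Cre alone, so both groups had Cre. The surfactant protein C promoter, which is active in type II cells, drives the transactivator and with it Cre. Which cells carried the deletion was not measured here. The comparison asks how loss of Gpr116 alters the transcripts of the isolated cells.

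Values are log2 RMA expression values, on which a difference of 1 is a doubling. A gene is called when its limma p, adjusted over all 19938 genes, is under 0.05. These p values measure the spread between pools, not between single mice. The Gpr116 probe set, now named Adgrf5, was higher in the knockout-labelled pools (11.89, 11.78 and 11.87) than in the control pools (11.49, 11.53 and 11.51). The position of its probes in the gene is unknown here, so this value is no check of the deletion, and all directions rest on the labels. The spread between pools was larger in the knockout-labelled pools, with a median SD over genes of 0.091 against 0.062. The titles carry further numbers with no stated meaning, the first of them 9, 9 and 11 in the knockout titles and 8, 8 and 10 in the control titles. If these mark a batch, it cannot be told apart from the group. Of 10 type II cell markers, with Sftpc at 13.15 in the controls, 1 was called higher (10%) and 0 lower. Over all genes 3.36% were called higher and 5.13% lower. Before adjustment 3 of these markers were higher and 0 lower at a limma p under 0.05, beside 11.5% and 10.6% of all genes. Groups did not overlap in 50% of these markers, beside 27.6% of all genes.

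Of the 9 measured genes, the ligands Nrg1 and Btc fell and the other 7 did not pass. Nrg1 was 1.39-fold and Btc 1.37-fold lower in the knockout-labelled pools. Over all genes 8.49% were called, 3.36% higher and 5.13% lower, and the 2 of 9 called here were both lower (22.2%). At an unadjusted limma p under 0.05, 1 member was higher and 2 were lower, beside 11.5% higher and 10.6% lower over all genes. The median difference of the 9 was -0.077, beside 0.0033 over all genes.

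The upstream sequence of Btc is shown because Btc is the called member with an entry in the RefSeq promoter table (GRCm38.p6), and that of Erbb2 as a receptor whose groups overlapped. Each is the 250 bases before the RefSeq start, on the gene's strand, 5′ to 3′, with CG dinucleotides in capitals. Btc lies on the minus strand (chr5:91402995-91403244) and Erbb2 on the plus strand (chr11:98412234-98412483).
Btc: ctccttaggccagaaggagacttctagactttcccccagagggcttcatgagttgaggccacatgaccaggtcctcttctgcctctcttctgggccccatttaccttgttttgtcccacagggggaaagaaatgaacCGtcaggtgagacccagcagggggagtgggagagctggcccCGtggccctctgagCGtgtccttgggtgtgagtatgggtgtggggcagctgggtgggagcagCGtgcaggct
Erbb2: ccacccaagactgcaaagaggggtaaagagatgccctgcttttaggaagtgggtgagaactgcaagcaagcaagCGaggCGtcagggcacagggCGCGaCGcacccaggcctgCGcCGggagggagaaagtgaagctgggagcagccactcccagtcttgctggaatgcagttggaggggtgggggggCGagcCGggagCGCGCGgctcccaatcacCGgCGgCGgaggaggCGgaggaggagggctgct
The Btc window held 4 CG dinucleotides and the Erbb2 window 16, beside a median of 6 over 32851 windows of this length. In 44.4% of all windows the number was no higher than in Btc, and in 76.5% no higher than in Erbb2. On either strand, Btc had no match to TATAAA (present in 12.4% of windows), GGGCGG (32.7%), CCAAT (33.8%), CACGTG (6.02%) or TGANTCA (6.75%), and had 1 match to TGACG (17.8%). Erbb2 had 1 CCAAT and 1 TGACG and none of the other 4. The table held 6 of the 10 genes, and 5 of the 9 measured.

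Nrg1 encodes neuregulin 1, a ligand of Erbb3 and Erbb4. It read 7.59, 7.42 and 7.17 on knockout arrays 1, 2 and 3 and 7.89, 7.85 and 7.88 in the control pools. Each knockout array lay below each control array, and knockout 3 lay lowest. The controls spanned little, with an SD of 0.021 against 0.211 in the knockout group (n = 3 each). The difference was -0.48 ± 0.10 (SE; limma adjusted p = 0.0343, 95% interval -0.72 to -0.24).

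Btc encodes betacellulin, a ligand of both Egfr and Erbb4. It read 7.14, 6.85 and 6.85 in the knockout-labelled pools and 7.46, 7.50 and 7.25 in the control pools. The groups did not overlap, although knockout 1 and control 3 lay close together. The difference was -0.46 ± 0.10 (SE, n = 3 per group; limma adjusted p = 0.0415, 95% interval -0.70 to -0.21).

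Both calls were near the threshold and depended on the arrays used. The Nrg1 adjusted p was 0.0549 without knockout 2 and 0.121, 0.119 and 0.131 without control 1, 2 and 3, with differences between -0.47 and -0.49. The Btc adjusted p was 0.0793 without knockout 2, 0.132 without knockout 3, and 0.144, 0.160 and 0.0716 without control 1, 2 and 3. With all 35556 probe sets in the limma fit neither was called (adjusted p = 0.0753 for Nrg1 and 0.0876 for Btc), and Btc alone was lost when arrays were centred on their medians (0.0564) or quantile normalized again (0.0570). The sign of both differences was the same in all 14 alternatives.

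**Figure D1:**
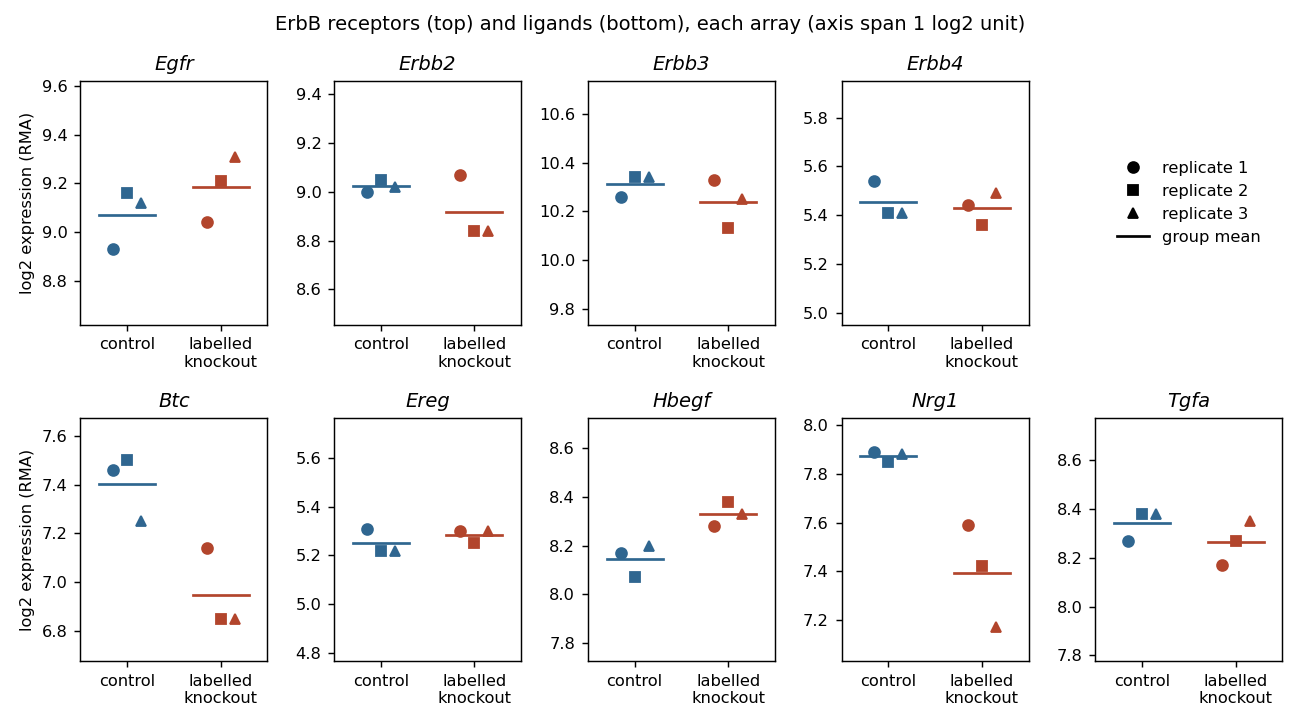
Log2 RMA expression of the 9 measured genes on each array, receptors above and ligands below, with every vertical axis spanning 1 log2 unit; symbols give the replicate number and bars the group mean. Nrg1 and Btc in the knockout-labelled pools lie below all control arrays, Hbegf above them, and the other 6 genes overlap.

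Most markers of ciliated and club cells, both of the airway, moved in the same direction on the same arrays. All 12 markers of ciliated cells were called lower, beside 5.13% of all genes. The ciliated mean was 8.83, 8.45 and 8.24 on knockout 1, 2 and 3 and between 9.46 and 9.53 in the control pools. The order of the knockout arrays was that of Nrg1. Of 8 club cell markers 6 were called lower (75%). The mean of the 8 was 10.97, 10.75 and 10.99 in the knockout-labelled pools and 11.34 to 11.44 in the control pools. The mean on knockout 3 was raised by 1 marker, Scgb3a1, which read 10.13, 10.15 and 12.02 on knockout 1, 2 and 3. Scgb3a1 read 10.65, 10.90 and 10.50 in the control pools, and the other 7 markers had lower means in the knockout-labelled pools. Foxj1, the transcription factor of motile cilia, averaged 8.67 in the knockout-labelled pools and 9.45 in the control pools. The part of these markers in the Nrg1 and Btc differences was not tested, and in these pools fewer cells of a type and less RNA per cell cannot be told apart.

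**Figure D2:**
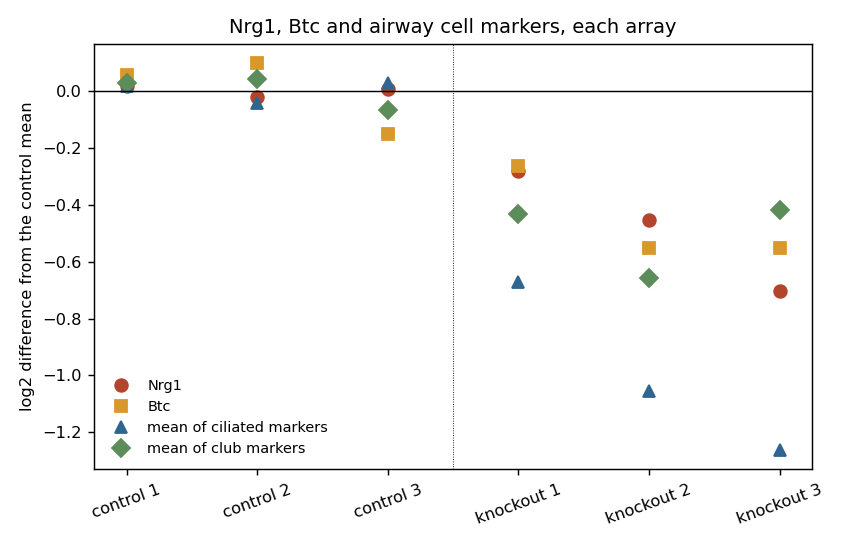
Log2 difference of each array from the control mean for Nrg1, Btc, the mean of 12 ciliated cell markers and the mean of 8 club cell markers. On knockout 1, 2 and 3 the ciliated mean stood at -0.67, -1.05 and -1.26, Nrg1 at -0.28, -0.45 and -0.70, Btc at -0.26, -0.55 and -0.55 and the club mean at -0.43, -0.66 and -0.42. The club mean on knockout 3 includes Scgb3a1, which read 12.02 there and 10.13 and 10.15 on knockout 1 and 2.

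Other cell types were checked with the same kind of list. Of 9 macrophage, 5 B cell, 6 mast cell and basophil, 8 T cell and innate lymphoid and 8 mesenchymal markers, 0 were called by limma. At an unadjusted p under 0.05, 1 T cell and innate lymphoid marker was higher and none of the others. The mesenchymal mean was 8.74 to 9.35 in the knockout-labelled pools and 8.97 to 9.22 in the control pools, and their marker Dcn averaged 11.19 in the control pools. Of 8 endothelial markers 1 was higher and 1 lower, and of 10 type I cell markers 1 was higher. At an unadjusted p under 0.05, 3 endothelial markers were higher and 1 lower, and 3 type I markers were higher and 3 lower. The shares over all genes were 11.5% higher and 10.6% lower. Groups did not overlap in 50% of the endothelial and 50% of the type I markers, beside 27.6% of all genes. Of 7 basal and 4 neuroendocrine markers 1 each was called lower, and of 6 neutrophil markers 1 was higher. Over all genes 3.36% were called higher and 5.13% lower. The basal markers, also of airway cells, had 4 positive and 3 negative differences. At an unadjusted p under 0.05, 3 of the 4 neuroendocrine markers were lower, beside 10.6% of all genes. Groups did not overlap in 75% of them, beside 27.6% of all genes. Their mean was 6.64, 6.59 and 6.51 on knockout 1, 2 and 3 and 6.78 to 6.92 in the control pools.

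The patterns most like Nrg1 over the 6 arrays were those of 2010204K13Rik, 1700012B09Rik and Tm6sf2, each with a Pearson correlation of 0.998. Those most like Btc were Chrm4 (0.995), Cep250 (0.994) and Slc2a9 (0.994). These correlations over 6 arrays in 2 groups are a description, and both groups enter them. In all, 71 genes exceeded 0.99 with Nrg1 and 10 with Btc.

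The remaining ligands did not pass. Hbegf, the heparin-binding ligand of Egfr and Erbb4, read 8.28, 8.38 and 8.33 in the knockout-labelled pools and 8.17, 8.07 and 8.20 in the control pools. Each knockout array lay above each control array. The difference was 0.18 ± 0.06 (SE, n = 3 per group), with a limma p of 0.0159 that became 0.116 after adjustment. Its 95% interval ran from 0.05 to 0.32. Groups that did not overlap were common in these data, at 3 of the 9 members (33.3%) and 27.6% of all genes. They lay higher in 14.8% of all genes and in 1 of the 9, and lower in 12.8% of all genes and in 2 of the 9.

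Tgfa, transforming growth factor alpha, a ligand of Egfr, read 8.17, 8.27 and 8.35 in the knockout-labelled pools and 8.27, 8.38 and 8.38 in the control pools. The groups overlapped, with a difference of -0.08 ± 0.07 and a 95% interval of -0.24 to 0.08. Ereg, epiregulin, read 5.30, 5.25 and 5.30 against 5.31, 5.22 and 5.22, a difference of 0.03 ± 0.05 with an interval of -0.09 to 0.16. The Ereg probe set was dim on these arrays, with a mean at percentile 18 of all genes, so it limits what a small difference can show. Whether Nrg1 or Btc changed by more than the other ligands was not tested.

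No receptor passed the limma threshold, nor had one an unadjusted p under 0.05, and in all 4 the groups overlapped. Egfr read 9.04, 9.21 and 9.31 in the knockout-labelled pools and 8.93, 9.16 and 9.12 in the control pools. The difference was 0.12 ± 0.09 (SE, n = 3 per group; 95% interval -0.10 to 0.33). In both groups replicate 1 was the lowest.

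Erbb2, the receptor without a known ligand, read 9.07, 8.84 and 8.84 against 9.0, 9.05 and 9.02. Knockout 1 lay above all controls while knockout 2 and 3 lay below them, and the difference was -0.11 ± 0.07 (95% interval -0.28 to 0.07). Without knockout 1 it was -0.18 ± 0.05, with a limma p of 0.013 that became 0.0937 after adjustment. The probe set shared with Sympk gave -0.10 ± 0.10.

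Erbb3, the neuregulin receptor of low kinase activity, read 10.33, 10.13 and 10.25 against 10.26, 10.34 and 10.34, a difference of -0.08 ± 0.07 (interval -0.23 to 0.08). Erbb4 read 5.44, 5.36 and 5.49 against 5.54, 5.41 and 5.41, a difference of -0.02 ± 0.06 (interval -0.17 to 0.12). Its probe set was also dim, at percentile 20.1, and the sign of its difference turned in 3 of 13 alternatives. The interval that reached furthest among the receptors, that of Egfr, allowed a change of up to 1.26-fold. Levels of different genes were not compared, since probe sets differ in their response.

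**Figure D3:**
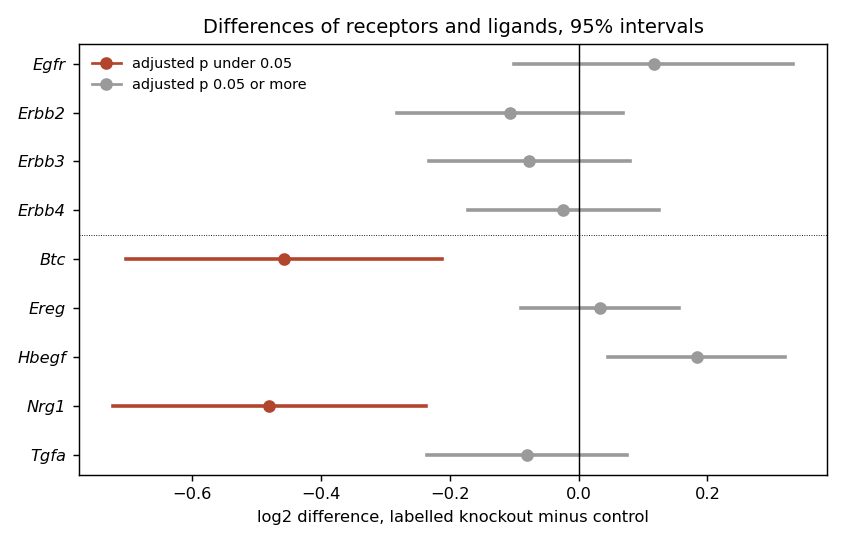
Log2 difference between the knockout-labelled and the control arrays for each measured receptor and ligand, with limma 95% intervals (n = 3 per group). The intervals of Nrg1 and Btc lie below 0 with adjusted p under 0.05, that of Hbegf lies above 0 without passing after adjustment, and those of the 4 receptors, Ereg and Tgfa include 0.

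Among the 5 other epidermal growth factor-like ligands (Egf, Epgn, Nrg2, Nrg3 and Nrg4), 0 were called by limma, beside 8.49% of all genes. At an unadjusted p under 0.05, 0 were higher and 2 lower, beside 11.5% and 10.6% of all genes. Groups did not overlap in 2 of the 5 (40%), beside 27.6% of all genes. Nrg4, a ligand of Erbb4, read 5.09, 5.01 and 5.08 in the knockout-labelled pools and 5.38, 5.21 and 5.41 in the control pools, without overlap (-0.27 ± 0.07; limma adjusted p = 0.0551). Nrg3, also a ligand of Erbb4, stood at -0.21 ± 0.06 (adjusted p = 0.0909, 0.0485 with array weights). Both lie low on the scale. The median difference of the 5 was -0.13.

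Among genes of ligand release the calls were higher. Of 10 measured sheddases and regulators 3 rose, 0 fell and 7 did not pass, beside 3.36% higher over all genes, with a median difference of 0.15. Adam17, the main sheddase of Hbegf, Tgfa and Areg precursors, read 9.39, 9.59 and 9.63 in the knockout-labelled pools and 9.10, 9.20 and 9.21 in the control pools. It rose by 0.37 (SE 0.08, n = 3 pools a group; limma adjusted p = 0.0316). Adam19, which can process neuregulin, rose by 0.41 ± 0.08 and the metalloproteinase Adam9 by 0.33 ± 0.06 (adjusted p = 0.0257 and 0.0202). Adam10, the sheddase of betacellulin, stood at 0.27 ± 0.08 without passing (adjusted p = 0.0891).

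Groups did not overlap in 5 of the 10 sheddases and regulators (50%), the 3 called ones among them, beside 27.6% of all genes. Without knockout 3 or any 1 control array, none of the 3 was called. Their adjusted p was then 0.0976, 0.121, 0.108 and 0.102 for Adam17 (without knockout 3, control 1, 2 and 3), with 0.0605 without knockout 2, and at most 0.107 for Adam19 and 0.0949 for Adam9. With all probe sets tested Adam17 and Adam19 lost their calls (0.0691 and 0.0581) and Adam9 did not.

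Of 20 genes that restrain the receptors or act in either direction on their degradation, 2 rose (10%), 1 fell (5%) and 17 did not pass. Over all genes 3.36% were called higher and 5.13% lower. Lrig1, a transmembrane protein that promotes degradation of ErbB receptors, read 8.44, 8.17 and 8.25 in the knockout-labelled pools and 8.89, 8.78 and 8.68 in the control pools. It fell by 0.50 (SE 0.09; limma adjusted p = 0.0184), and every knockout array lay below every control array. The ubiquitin ligase Cbl, which marks activated Egfr for degradation, rose by 0.26 ± 0.05, and the deubiquitinase Usp8, which acts on receptors in endosomes, by 0.27 ± 0.05 (adjusted p = 0.0276 and 0.0291). Blocking on the replicate number removed the calls of Cbl and Usp8 (adjusted p = 0.0610 and 0.0547). None of the 3 was called without knockout 3 or without any 1 control array, with adjusted p of at most 0.0813 for Lrig1, 0.116 for Cbl and 0.130 for Usp8, nor were Cbl (0.0503) and Usp8 (0.0542) without knockout 1. Both also lost their calls with all probe sets tested (0.0581 and 0.0607), and Usp8 after quantile normalization (0.0591). Errfi1, an inhibitor of the Egfr kinase chosen here after its values were seen, stood at 0.12.

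Downstream of the receptors, each of 3 lists had 1 call, beside 3.36% higher and 5.13% lower over all genes. Of 16 adaptors and docking proteins 1 rose (6.25%), the phosphatase Ptpn11, which links receptors to Ras, at 0.27 ± 0.05 (SE, n = 3 pools a group, limma adjusted p = 0.0236). The replicate block ended its call (adjusted p = 0.0507), as did leaving out arrays, namely knockout 3 (0.0706) or control 1, 2 or 3 (0.0579, 0.114 and 0.102).

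Of 13 measured genes of the Ras-MAPK and PI3K-Akt kinase list 1 rose (7.69%), and the other 7 listed were not analysed here. It was Map2k1, the kinase that activates ERK, which read 9.08, 9.16 and 9.25 in the knockout-labelled pools and 8.65, 8.64 and 8.55 in the control pools. The difference was 0.55 ± 0.06 (SE, n = 3 per group; limma adjusted p = 0.0053). It was called in all 14 alternatives, with an adjusted p of at most 0.0381.

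Of 24 feedback and target genes of ERK 0 rose and 1 fell (4.17%). Egr1, an immediate early transcription factor, read 9.95, 10.22 and 9.99 against 10.64, 10.51 and 10.70, a difference of -0.56 ± 0.09 (SE; limma adjusted p = 0.0123, and 0.0609 and 0.0685 without control 1 and control 3). At an unadjusted p under 0.05, 4 of the 24 were higher and 3 lower, beside 11.5% and 10.6% of all genes. The median difference of this list was 0.0033, the same as over all genes.

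**Figure D4:**
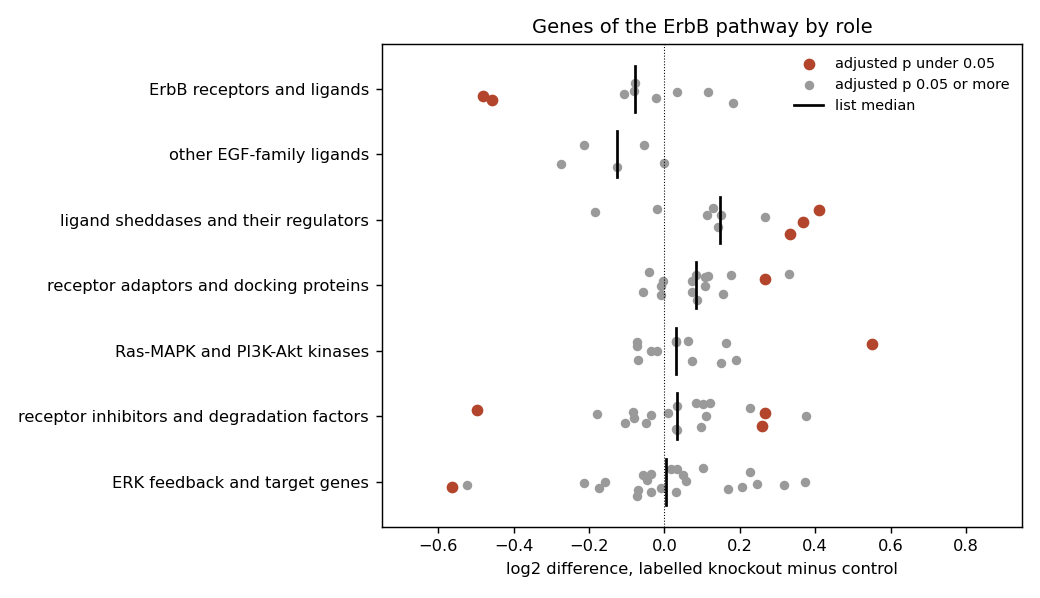
Log2 difference between the knockout-labelled and the control arrays for each measured gene of 7 lists, ordered from ligands and receptors to ERK targets. Coloured points passed the limma threshold and vertical lines are list medians, which run from -0.13 for the other ligands to 0.15 for the sheddases.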

How the data were processed

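RNA of 6 pools was measured on Affymetrix mouse arrays, with 3 pools in each group. The deposited values are log2 expression values that the authors computed by RMA. The software was Affymetrix Expression Console 1.1, as the submitters' processing notes list it. RMA corrects background, gives the arrays a common distribution and summarises the probes of each probe set, so a change shared by most genes is removed. The number of arrays limits the precision. A genome build for the array is not stated in the sources used here.

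Of 35556 probe sets, 21789 had 1 gene symbol in the platform annotation, 1621 had several and 12146 had none. By Entrez identifier 21698 of the 1-symbol probe sets matched RefSeq (GRCm38.p6). The probe set with the highest mean was kept per gene, which left 19938 genes. Groups were compared over all of them with limma 3.58.1 under R 4.3.3 (moderated two-sided test from lmFit and eBayes, Benjamini-Hochberg, threshold 0.05). The members, lists and naming rule were chosen with earlier results of these data known. The rule named all members, up to 5 called genes of each pathway list (where none was called, the 2 with the smallest p), and the 3 genes most correlated with each called member. Sftpc, Foxj1, Scgb3a1, Dcn, Adam10 and Errfi1 were named after their values were seen. In data simulated from these genes, limma recovered 65 of 100 changes of 0.5 and 92 of 100 changes of 1 among 19938 genes. It called 7 unchanged genes. Only those genes were changed in the simulation, while 1692 were called in the measured data. Its noise was independent between arrays with the same SD in both groups, unlike the measured data, so these rates may not hold for them.

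Arrays of the same replicate number deviated together, with correlations of 0.192, 0.103 and 0.111 over the tested genes, each above the limit of 0.1. The numbers come from the titles, which do not say what they mark, and with every probe set included they were 0.227, 0.038 and 0.106. A fit with the number as a block was therefore run. Other alternatives left out each array, added an intensity trend, weighted arrays, dropped the lowest 25% of genes by mean, centred or quantile normalized the arrays, averaged probe sets and tested all probe sets.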

Additional observations from a re-analysis of the deposited data

How the results depend on the processing

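Nrg1 kept its call in 9 of 14 alternatives and Btc in 6 of 14, and the other members were called in none of theirs. The count of members called, 2 in the reported fit, was 1 with arrays centred on their medians or quantile normalized again and 0 by limma with all probe sets tested, where 3 had an unadjusted p under 0.05. It ran from 0 to 2 when single arrays were left out, with 2 to 4 at an unadjusted p under 0.05. With the replicate number as a block both members called were called again, 2 in all, beside 1584 of all genes against 1692.

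Over all genes 459 to 1929 were called when single arrays were left out. For the pathway lists these ranges were 0 to 3 sheddases, 0 to 2 adaptors, 1 to 1 kinases, 0 to 3 inhibitors, 0 to 3 ERK targets and 0 to 0 other ligands. The replicate block gave 0 adaptors by limma (2 at an unadjusted p under 0.05), 1 inhibitor and 2 ERK targets. Array weights gave 1 other ligand, 2 adaptors and 3 ERK targets. The intensity trend gave 2 kinases and 2 ERK targets. Dropping the lowest 25% of genes by mean, which removes Erbb4, Ereg, Epgn, Nrg3 and Nrg4, gave 2 adaptors, 2 kinases and 2 ERK targets. Median centring gave 2 ERK targets, as did the mean of all probe sets of a gene. All probe sets tested gave 1 sheddase and 1 inhibitor. The causes were not tested. The dim probe sets of Erbb4 and Ereg and the small number of arrays limit what could be detected.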
